A study of Prunus persica with 9 samples.

Results

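The genes of miR162 (ENSRNA049996910), miR168 (ENSRNA049996833) and miR403 (ENSRNA049996042) were described in peach leaves before and after treatment with PpPep2. PpPep2 is one of the plant elicitor peptides of peach. Such peptides are released when plant cells are damaged, and receptors at the cell surface perceive them as a danger signal. The 3 genes were chosen by their identifiers and by the targets known for their miRNAs, and are 3 of the 210 pre_miRNA genes listed by the authors. Earlier results of these data were known at that choice, and the study had listed all 3 as changed in these same libraries. Small RNA was sequenced from leaves of juvenile peach plants (Prunus persica var. Big Top) in 3 groups of 3 libraries each, the control (t0) and 1 h and 24 h after spraying with 1 μM PpPep2. Each library was made from several plants pooled, with the 5 youngest fully expanded leaves of each plant. The control is called mock in the sample labels and untreated in the paper. No control was taken at 1 h or 24 h, so that an effect of PpPep2 cannot be told apart from an effect of time or handling. The values hold pre_miRNA genes only, and the identity of the tissue was therefore not checked against leaf markers.

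Plant miRNAs are cut from hairpin precursors by a Dicer enzyme and are loaded into an Argonaute protein, which they guide to mRNAs with a matching sequence. Several components of this pathway are themselves miRNA targets, an arrangement described best in Arabidopsis. There, miR162 targets the mRNA of DCL1, the Dicer that makes miRNAs. miR168 targets the mRNA of AGO1, the Argonaute that most miRNAs use. miR403 targets the mRNA of AGO2, an Argonaute known for its role in antiviral and antibacterial defence. Those mRNAs were not measured in these libraries.

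The mature sequences listed by the study for the 3 genes are shown because a miRNA finds its targets by a matching sequence. Whether they match the peach mRNAs of DCL1, AGO1 and AGO2 was not examined. The sequences are written 5′ to 3′, with the seed (bases 2 to 8) in capitals.
miR162 (3p arm): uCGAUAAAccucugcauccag
miR168 (5p arm): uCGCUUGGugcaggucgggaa
miR403 (3p arm): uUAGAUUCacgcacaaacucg
All 3 sequences had 21 nt and began with U. The study listed 39 mature sequences of 33 genes, of which 29 had 21 nt and 23 began with U, so that neither property set the 3 miRNAs apart. No other listed gene had the seed of miR162, miR168 or miR403 (0 genes for each). Aligned from the first base, miR162 shared 6 of 21 positions with miR168 and 6 with miR403, and miR168 shared 2 with miR403. The GC content was 47.6% for miR162, 61.9% for miR168 and 42.9% for miR403. The list ran from 36.4% to 61.9%, and miR168 shared the highest value with other listed sequences.

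The values are normalized counts of the authors, that is, reads of a gene scaled so that libraries can be compared. Within each library every value above 0 was a whole multiple of one step, which was taken as the worth of 1 read. By this step the libraries held between 115519 and 546709 reads on pre_miRNA genes, and the group medians were 481412 (t0), 267132 (1 h) and 218684 (24 h). Median depth thus fell from group to group, and its part in the results was not tested. The 3 genes stood well above what the depth can show, since 3 reads were worth 1.46 to 8.53 normalized counts. Between 1052 and 5473 reads per library fell on miR162, between 519 and 2701 on miR403 and between 202 and 1625 on miR168. Changes were tested with limma on log2(normalized count + 1) in 1 fit of all 9 libraries, over the 135 genes with a mean normalized count of at least 5. A gene was called at an adjusted p under 0.05 (Benjamini-Hochberg over the 135 genes). All 3 genes passed the filter, with lowest library values of 2588.54 for miR162, 372.28 for miR168 and 1125.61 for miR403. In bulk leaf RNA, fewer cells of a type and less RNA per cell cannot be told apart. The replicates are pools of plants, with no mention of separate growth or treatment occasions, and the p-values measure only the spread between these pools.

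At 24 h after PpPep2, miR162 and miR403 were higher than at t0 and both were called, whereas the mean of miR168 was lower without reaching the threshold. The group mean rose 1.62-fold for miR162 and 1.92-fold for miR403, and the mean of miR168 at 24 h was 0.615 times that at t0. At 1 h none of the 3 genes was called (0 of 3). In the plot of the single libraries, the group means rise from t0 through 1 h to 24 h for miR162 and miR403 and fall for miR168. The single libraries at 1 h overlap those at t0 for each of the 3 genes.

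**Figure D1:**
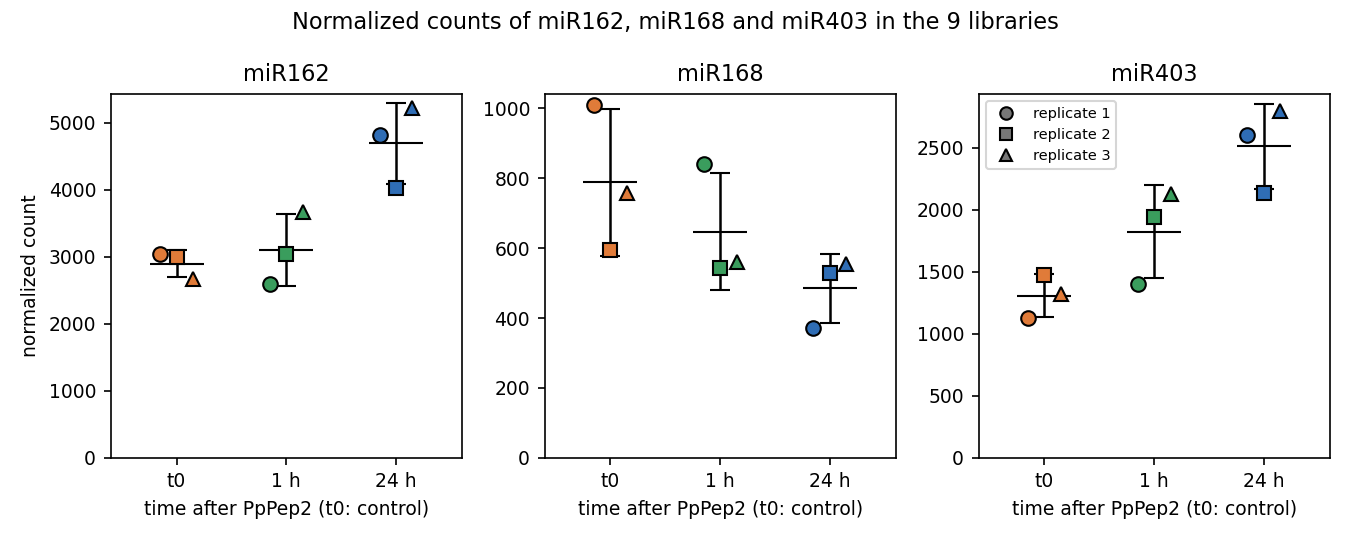
Normalized counts (vertical axis, from 0) of miR162, miR168 and miR403 in each library at t0, 1 h and 24 h (horizontal axis), with long lines for the mean and bars for the SD of 3 libraries. The 24 h libraries lie above all t0 libraries for miR162 and miR403 and below all t0 libraries for miR168, and the 1 h libraries overlap t0 in each panel.

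miR162, whose target DCL1 makes miRNAs, had normalized counts of 3038.53, 2992.31 and 2671.95 in the t0 libraries. At 1 h it had 2588.54, 3048.95 and 3664.44, which spread to both sides of the t0 values. At 24 h it had 4819.9, 4031.7 and 5230.16, all above every t0 and every 1 h library. The lowest 24 h library was 1.33-fold above the highest t0 library and 1.10-fold above the highest 1 h library. The group means were 2901 ± 199.6 at t0, 3101 ± 539.8 at 1 h and 4694 ± 609 at 24 h (SD, n = 3 each). The increase over t0 was 0.69 on the log2 scale at 24 h (SE 0.18, 95% interval 0.28 to 1.10, adjusted p = 0.0377, limma with Benjamini-Hochberg adjustment). At 1 h the difference from t0 was 0.08 (SE 0.18, 95% interval -0.33 to 0.50, adjusted p = 0.830, limma, Benjamini-Hochberg). The interval at 1 h leaves room for a decrease as well as for an increase. The call at 24 h was a narrow one, since a log2 difference of 0.65 was needed at the spread of this gene. When single libraries were left out in turn, 2 of 9 fits kept the call of miR162, those without 1 h replicate 1 and without 1 h replicate 3, and the adjusted p ran from 0.0115 to 0.127 over the 9 fits (limma, Benjamini-Hochberg). The log2 change itself moved little, between 0.61 and 0.79. The call was also lost without the variance trend in limma (adjusted p = 0.0678, Benjamini-Hochberg).

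miR168, whose target AGO1 carries most miRNAs, went the other way in its means. The t0 libraries had normalized counts of 1010.56, 594.48 and 759.16. The 1 h libraries had 839.57, 542.98 and 560.23, and the first of them lay among the t0 values. The 24 h libraries had 372.28, 528.15 and 553.59, all below the lowest t0 library, although the nearest values of both groups were only 1.07-fold apart. That distance is within the counting error of the libraries concerned. The lowest t0 value (replicate 2) rested on 209 reads, with a 95% Poisson interval of 517 to 681 normalized counts, and the highest 24 h value rested on 440 reads. The same interval for the lowest 24 h value, in replicate 1, was 325 to 424. These intervals cover counting error only, since PCR can copy 1 molecule into several reads. The group means were 788 ± 209.5 at t0, 648 ± 166.5 at 1 h and 485 ± 98.2 at 24 h (SD, n = 3 each). The log2 difference from t0 was -0.69 at 24 h (SE 0.28, 95% interval -1.32 to -0.06, unadjusted p = 0.0353, adjusted p = 0.122, limma with Benjamini-Hochberg adjustment). At 1 h it was -0.28 (SE 0.28, 95% interval -0.91 to 0.35, adjusted p = 0.658, limma, Benjamini-Hochberg). The estimate for miR168 at 24 h was as large as that for miR162, with the opposite sign, but a difference of 0.99 would have been needed for a call at its larger spread. miR168 was called in none of the 9 fits that left out a library (0 of 9), with log2 differences between -0.87 and -0.49. It was called in 1 setting, chosen after seeing the data, in which limma gives noisier libraries less weight (array weights, log2 difference -0.75, adjusted p = 0.0464, Benjamini-Hochberg).

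miR403, whose target AGO2 acts in defence, had normalized counts of 1125.61, 1476.24 and 1318.65 at t0. At 1 h it had 1401.45, 1943.74 and 2124.62, so that replicates 2 and 3 were above all t0 libraries and replicate 1 was not. At 24 h it had 2605.93, 2130.89 and 2791.85, all above t0, with the nearest libraries 1.44-fold apart. The 24 h libraries were also above the 1 h libraries, but the closest of them differed by a factor of only 1.003. The group means were 1307 ± 175.6 at t0, 1823 ± 376 at 1 h and 2510 ± 341 at 24 h (SD, n = 3 each). Of the 3 genes, miR403 had the largest fold change at 24 h, 0.94 on the log2 scale (SE 0.21, 95% interval 0.46 to 1.42, adjusted p = 0.0246, limma with Benjamini-Hochberg adjustment). A difference of 0.76 was needed for a call. At 1 h its log2 difference was 0.47 (SE 0.21, 95% interval -0.02 to 0.95, unadjusted p = 0.0566, adjusted p = 0.354, limma, Benjamini-Hochberg). With single libraries left out, the call of miR403 at 24 h held in 5 of 9 fits and was lost without t0 replicate 1, t0 replicate 3, 24 h replicate 1 or 24 h replicate 3. The log2 change stayed between 0.84 and 1.05 and the adjusted p between 0.00586 and 0.101 over the 9 fits (limma, Benjamini-Hochberg). At 1 h miR403 passed the threshold only with array weights (log2 difference 0.61, adjusted p = 0.0382, limma, Benjamini-Hochberg).

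**Figure D2:**
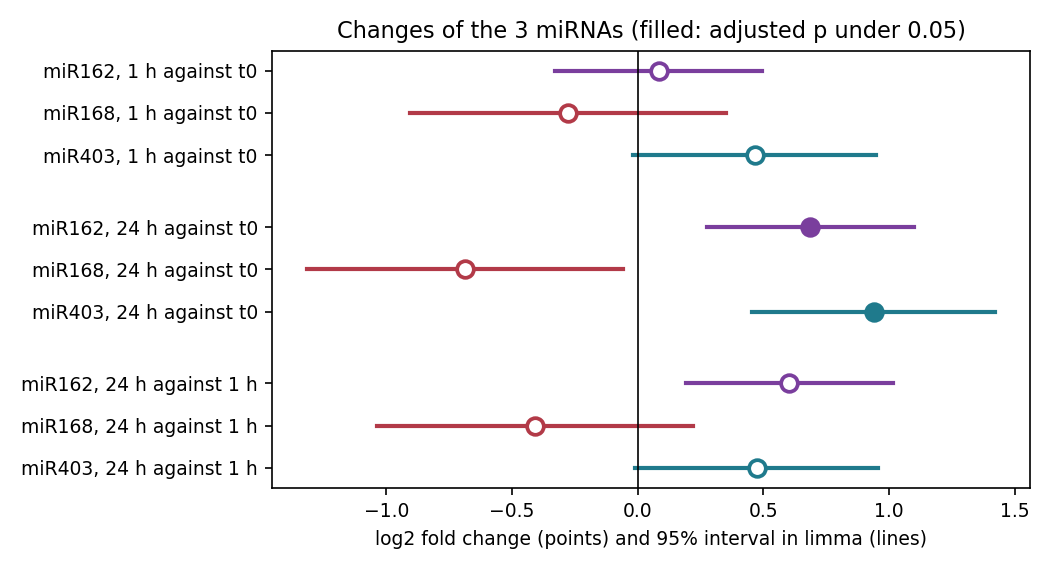
Log2 fold change (horizontal axis, points) of miR162, miR168 and miR403 in each of the 3 comparisons, with 95% intervals of limma as lines and filled points for an adjusted p under 0.05. The 2 filled points are miR162 (0.69) and miR403 (0.94) at 24 h against t0, and the intervals of all 3 genes at 1 h against t0 include 0.

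These counts have to be read against all genes. At 24 h against t0, 19 of the 135 genes were called, 7 up and 12 down, which is 14.1%, and 2 of the 3 genes described here were among the 7. Since the study had listed all 3 from its tests on these libraries, that share is not independent evidence. The groups of libraries did not overlap for 56 genes (41.5%) at 24 h, and the complete separation seen for miR162, miR168 and miR403 was therefore common. The median log2 change of all 135 genes was -0.01 at 24 h. By p-value, miR403 was the 9th, miR162 the 16th and miR168 the 39th of the 135 genes. By absolute log2 change, miR403 was the 39th, miR162 the 51st and miR168 the 52nd of the 135 genes, whose median was 0.58 at 24 h. With the sign kept, 11 genes had a higher log2 change than miR403 and 18 a higher one than miR162, called or not. From the lowest, miR168 was the 33rd. These ranks cover all genes tested, including those with far lower counts, and the changes of genes with like counts were not compared. At 1 h, 1 gene was called (0.741%), a lower one, and 29 genes (21.5%) did not overlap between groups, but none of the 3 was among them. An unadjusted p under 0.05 was found for 17 genes at 1 h and for 44 genes at 24 h.

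**Figure D3:**
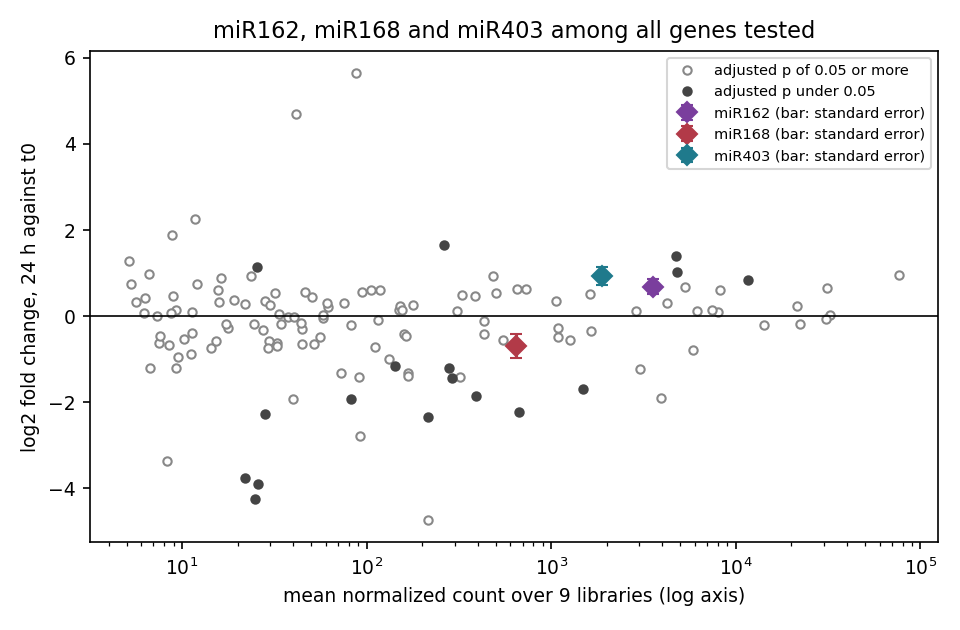
Log2 fold change at 24 h against t0 (vertical axis) and mean normalized count over the 9 libraries (horizontal log axis) of the 135 genes tested, with filled circles for an adjusted p under 0.05 and bars for the standard error of miR162, miR168 and miR403. The 3 genes lie in the well-covered right part of the plot, with changes far smaller than those of several genes with low counts.

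The replicates of miR162 and miR403 held together more closely than those of most genes. The residual SD of miR162 was 0.19 on the log2 scale, the 12th smallest of 135, and that of miR403 was 0.24, the 26th smallest, against a median of 0.42. For miR168 it was 0.35, the 50th smallest. The median covers all genes tested, including those with far lower counts, and genes of like counts were not compared. Counting error was small beside this spread. At t0 the coefficient of variation was 6.88% for miR162, 26.6% for miR168 and 13.4% for miR403, and the mean counting error of a library was 1.96%, 3.98% and 2.89%. For miR168 the spread between control libraries was thus several times larger than the counting error, with replicate 1 above the others.

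Between 1 h and 24 h none of the 3 genes was called, and none of all 135 genes was (0%), although 18 genes had an unadjusted p under 0.05 and the smallest adjusted p was 0.307 (limma, Benjamini-Hochberg). miR162 had a log2 difference of 0.60 (SE 0.18, 95% interval 0.19 to 1.02, unadjusted p = 0.00911, adjusted p = 0.307, limma, Benjamini-Hochberg), the 4th smallest p of all genes. miR403 had 0.47 (95% interval -0.01 to 0.96, adjusted p = 0.370, limma, Benjamini-Hochberg) in this comparison. miR168 had -0.41 (95% interval -1.04 to 0.22, adjusted p = 0.546, limma, Benjamini-Hochberg), with 24 h replicate 3 among the 1 h libraries and the other 24 h libraries below them. The groups of 1 h and 24 h did not overlap for miR162 and miR403, as for 29 genes in all (21.5%). Without 1 h replicate 1, a library described next, the log2 difference between 24 h and 1 h was 0.48 for miR162, -0.21 for miR168 and 0.30 for miR403. The mean of miR403 was higher at each successive time point, but how its difference divided between the time points thus rested on that library. Whether the timing differed between these miRNAs was not tested.

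One library bears on the values at 1 h. Replicate 1 at 1 h differed from replicates 2 and 3 by a chi-square per degree of freedom of 243 and 219, over genes with enough reads. The value was 18.9 between replicates 2 and 3 and 24.5 to 89.5 for replicate pairs of the other groups. Such a value grows with depth, and replicate 1 was the deepest 1 h library, with 338631 reads against 267132 and 224961. The deepest libraries of all, t0 replicates 1 and 3 with 481412 and 546709 reads, gave 59.6 as a pair. The part of depth in the values of replicate 1 at 1 h was not tested. Replicate 1 at 1 h had the lowest 1 h value of miR162 and miR403 and the highest of miR168. For each gene it was thus the 1 h library farthest from the 24 h mean. Without it, the log2 differences at 1 h against t0 became 0.21 for miR162, -0.48 for miR168 and 0.65 for miR403, with adjusted p of 0.498, 0.322 and 0.0598 (limma, Benjamini-Hochberg). None of the 3 was called at 1 h without that library either, although 18 genes in all were. At 24 h against t0, leaving it out took the number of called genes from 19 to 35, and the adjusted p became 0.0115 for miR162, 0.0747 for miR168 and 0.00586 for miR403 (limma, Benjamini-Hochberg).

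Since scaling acts on a whole library, the ratio of a pair of genes within a library does not depend on it. The ratio of normalized counts was used only to compare libraries, and not to say which miRNA is more abundant, because how well each sequence is captured was not measured. The ratio of miR403 to miR162 was 0.370, 0.493 and 0.494 in the t0 libraries. It was 0.541, 0.638 and 0.580 at 1 h. At 24 h it was 0.541, 0.529 and 0.534, nearly the same in each library. The 1 h and 24 h libraries were all above t0, and the mean log2 difference from t0 was 0.38 at 1 h and 0.25 at 24 h. Leaving out single libraries gave 0.25 to 0.45 at 1 h and 0.11 to 0.32 at 24 h, the lowest value of both without t0 replicate 1. At 24 h the ratio thus moved less than either miRNA rose with the authors' scaling, by 0.69 for miR162 and 0.94 for miR403. Those increases depend on the scaling, and were 0.40 and 0.65 with each library brought to the same total. At 1 h the ratio moved more than miR162 itself, whose log2 difference was 0.08.

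The ratio of miR168 to miR162 was 0.333, 0.199 and 0.284 at t0, 0.324, 0.178 and 0.153 at 1 h and 0.0772, 0.131 and 0.106 at 24 h. Every 24 h library was below every t0 and every 1 h library, while 1 h overlapped t0. The mean log2 difference at 24 h against t0 was -1.38, and leaving out single libraries gave -1.59 to -1.17. The ratio of miR168 to miR403 differed still more between the groups. It was 0.898, 0.403 and 0.576 at t0, 0.599, 0.279 and 0.264 at 1 h and 0.143, 0.248 and 0.198 at 24 h. The 24 h libraries were again below all others, and the log2 difference from t0 was -1.63, between -1.91 and -1.33 without single libraries. In other terms, the mean ratio of miR403 to miR168 was 1.78 at t0, 3.01 at 1 h and 5.36 at 24 h. All ratios were described and not tested. How many other pairs of genes separate the groups in this way was not counted. Of the single genes, 41.5% did not overlap between 24 h and t0, and the study had listed all 3 miRNAs as changed. The separation of their ratios is therefore not independent evidence. An exact two-sided permutation test of 3 libraries against 3 could not have given a p below 0.1.

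**Figure D4:**
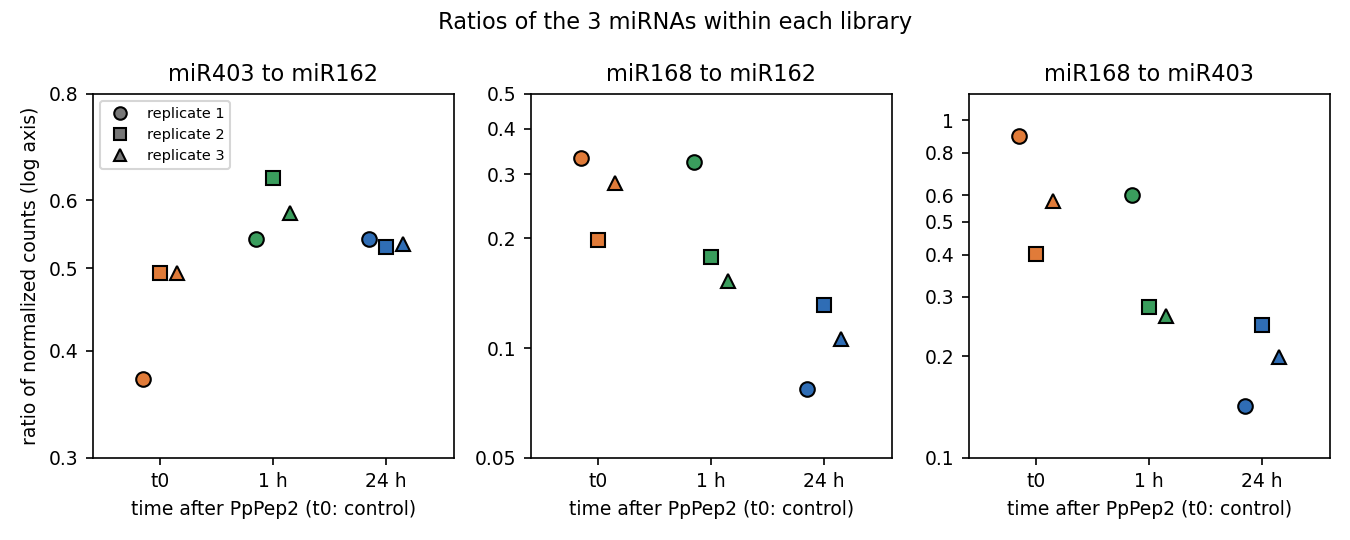
Ratio of normalized counts of 2 miRNAs within each library (vertical log axis) at t0, 1 h and 24 h (horizontal axis), with marker shapes for replicates 1 to 3. Both ratios with miR168 are lower in all 24 h libraries than in all other libraries, and the ratio of miR403 to miR162 lies between 0.529 and 0.541 at 24 h.

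Of the settings run, the scaling of the libraries moved the 24 h changes furthest. When each library was brought to the same total, the log2 change at 24 h was 0.40 for miR162, -0.98 for miR168 and 0.65 for miR403, and the median of all genes moved to -0.30. With the same upper quartile it was 0.99, -0.39 and 1.24, and the median moved to 0.27. The number of called genes was 4 up and 18 down with the same total and 21 up and 10 down with the same upper quartile. miR162 was not called with the same total (adjusted p = 0.106), miR403 was called under both scalings (adjusted p = 0.0408 and 0.00808) and miR168 under neither (adjusted p = 0.0975 and 0.324; limma, Benjamini-Hochberg). Relative to the median of all genes, the changes were 0.69 to 0.72 for miR162, -0.68 to -0.66 for miR168 and 0.95 to 0.97 for miR403. This near constancy follows from the arithmetic, since a scaling shifts all genes of a library alike. It therefore does not show which scaling is right. The 24 h directions of the 3 genes were kept under every setting that was run.

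**Figure D5:**
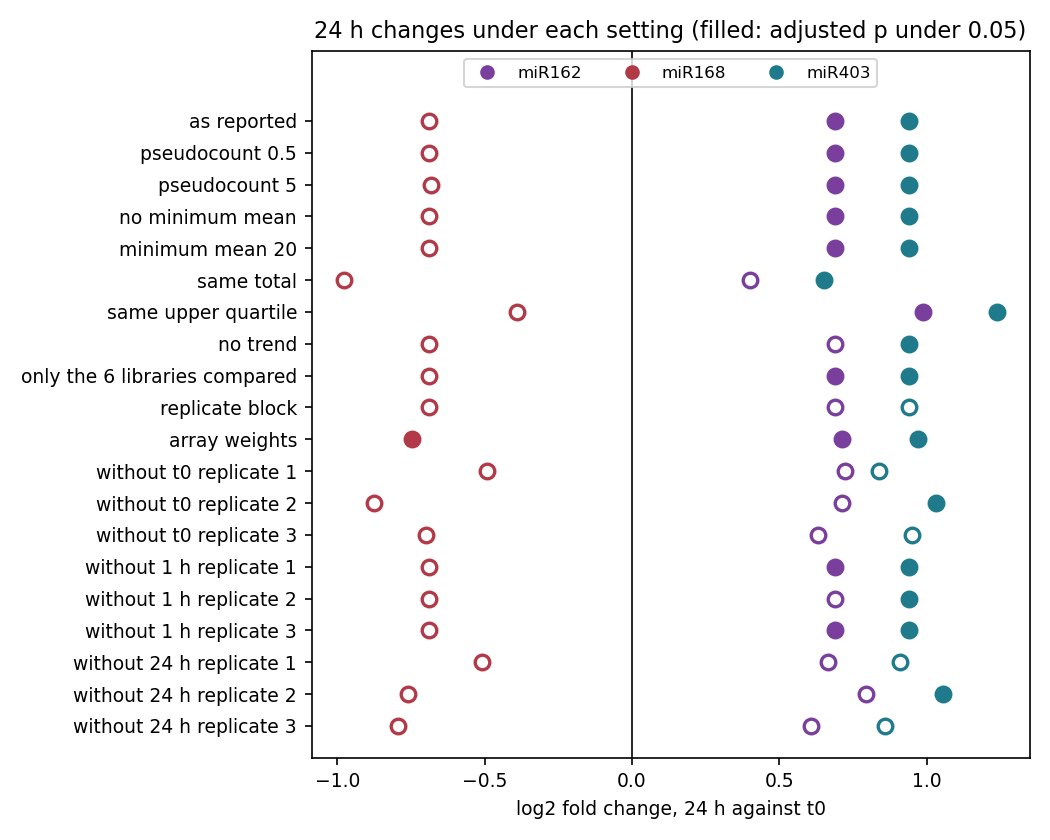
Log2 fold change at 24 h against t0 (horizontal axis) of miR162, miR168 and miR403 under each setting of the test (rows), with filled circles for an adjusted p under 0.05. miR162 and miR403 stay above 0 and miR168 below 0 in every row, while the calls come and go, and miR168 is filled with array weights alone.

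The genes whose pattern over the 9 libraries was most like that of each miRNA were looked up by the root mean square (RMS) difference of their log2 values, each taken relative to its t0 mean. This is a description, in which all genes share the libraries and their depth. For miR162 they were miR482e (RMS 0.145), ENSRNA049996202 (0.202) and ENSRNA049997151 (0.215), compared with a median of 0.716 over the other genes. miR482e went from 534 ± 103 normalized counts at t0 to 608 ± 103 at 1 h and 825 ± 102 at 24 h (SD, n = 3 each). For miR403 they were miR482f (RMS 0.161), miR396b (0.194) and ENSRNA049996257 (0.226), with a median of 0.861. miR482f went from 3215 ± 311 to 4544 ± 1253 and 6556 ± 909 (SD, n = 3 each). For miR168 they were ENSRNA049997157 (RMS 0.226), ENSRNA049996366 (0.235) and ENSRNA049997099 (0.314), none of them named in the sources used here, with a median of 0.794. miR403 was the 10th most similar gene to miR162 and miR162 the 8th to miR403, with an RMS of 0.293. For miR168 the RMS was 0.901 to miR162 and 1.13 to miR403, which placed it 82nd in likeness to miR162 and 89th to miR403, beyond the middle of all genes.

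Other miRNAs of the silencing pathway are those known in plants to start the production of secondary siRNAs from their target transcripts. Of the 7 such genes looked at (miR390, miR482a, miR482c, miR482e, miR482f, miR7122a and miR7122b), 3 were called up at 24 h, miR482f, miR7122a and miR7122b, 1 was called down, miR390, and 3 were not called, where 14.1% of all genes were called in either direction. The study had listed them from its tests on these same libraries, as it had miR162, miR168 and miR403. For neither list are the share called, the size of the changes or their direction therefore independent evidence. Their median log2 change at 24 h was 0.93, that of miR162, miR168 and miR403 was 0.69, and that of all 135 genes was -0.01. At 1 h against t0 and at 24 h against 1 h none of the 7 was called (0 of 7), where 0.741% and 0% of all genes were.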

How the data were processed

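Leaf small RNA of 3 groups of 3 libraries was measured by miRNA-Seq. According to the paper and the submitters' processing notes, the authors trimmed reads with Trim Galore 0.6.6, mapped them with STAR 2.5.3a to the peach genome, quantified them with RSEM 1.3.0 (seed length 16) and analysed them with DESeq2 1.26.0. What was deposited is a signal in the form of normalized counts per pre_miRNA gene, already scaled between libraries. RSEM can divide reads between similar precursors. The sample labels gave the group and replicate of each library.

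Changes were tested two-sided with limma 3.58.1 in R 4.3.3 (empirical Bayes trend, log2(normalized count + 1), 9 libraries, no replicate block, 135 genes with a mean of at least 5, Benjamini-Hochberg, threshold 0.05). The script was also run on simulated data, with planted changes larger than those of the 3 genes. That run therefore does not show how often changes of their size are called. The added 1 understates changes of genes with low counts and hardly touches the 3 genes. Every value above 0 was within 0.02 reads of a whole number of reads beyond rounding, in 100% of cases, but fewer than 100 low values per library were available, and a count test on such reads was not run. Ratios, Poisson intervals and chi-square values were computed with pandas 2.3.3, scipy 1.17.1 and numpy 2.4.6 in Python 3.11.15, and matplotlib 3.10.9 drew the plots. Alternatives were a pseudocount of 0.5 or 5, no minimum mean or one of 20, the same total or upper quartile for each library, no trend, only the 6 libraries compared, a replicate block and each library left out.

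The genes named are the 3 miRNAs, for each the 3 genes most like it in pattern, and called genes of the list of secondary siRNA triggers. miR482a and miR482c are outside this rule and are named only as part of that list. The 3 miRNAs and the lists were chosen with earlier results of these data known. Mature sequences were read from the study's supplementary tables. No positions are given, since 0 identifiers were found in the reference table. Target mRNAs and the authors' own fold changes were not used here.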

Additional observations from a re-analysis of the deposited data

How the results depend on the processing

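Directions at 24 h against t0 and at 24 h against 1 h were kept for miR162, miR168 and miR403 under every setting run, and the cause was not tested for the changes that follow. Signs turned only at 1 h against t0, for miR162 with the same total (-0.084) or without single libraries (-0.044 to 0.21) and for miR168 with the same upper quartile (0.040). At 24 h the call of miR162 was lost with the same total (log2 change 0.40), without the trend (0.69, adjusted p = 0.0678) and without single libraries (0.61 to 0.79), and that of miR403 without single libraries (0.84 to 1.05). The replicate block lost both calls, with log2 changes of 0.69 for miR162 (adjusted p = 0.0752) and 0.94 for miR403 (adjusted p = 0.0516), so that 0 of the 3 genes and 10 of all genes were called with it (limma, Benjamini-Hochberg). Only 3 of 9 pairs with the same replicate number had correlated deviations above 0.1, but with 3 libraries per group this cannot exclude a pairing. Array weights, chosen after seeing the data, gave calls of miR403 at 1 h (0.61, adjusted p = 0.0382) and of miR168 at 24 h (-0.75, adjusted p = 0.0464). Of the 3 genes, 1 was called at 1 h with array weights, and at 24 h 1 with the same total, 1 without the trend and 0 to 2 without single libraries. Of all genes, 2 were called at 1 h with the same total, 7 with the same upper quartile, 19 with array weights and 0 to 18 without single libraries. At 24 h these were 31 with the same upper quartile, 12 without the trend, 31 with only the 6 libraries compared, 37 with array weights and 0 to 35 without single libraries, the lowest without t0 replicate 1 or 3. At 24 h against 1 h, 0 to 2 genes were called without single libraries. The ratios moved by less than the spread between replicates under every alternative run. Depth limits miR168 most, with 202 reads in 24 h replicate 2.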
